A study of Mus musculus with 12 samples.

Results

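The ATF4 amino acid response genes are 37 genes of the pathway by which cells respond when amino acids run short or protein folding is disturbed: its regulators and the genes it is known to raise. They were taken by symbol: for each gene, the array probe sets annotated to that gene alone were collected, and the brightest of them over the 12 arrays stood for the gene. All 37 had such a probe set, out of 18194 genes on the arrays, and 34 reached the level at which genes were tested, out of 11070 genes tested. The other 3 were Slc7a11 (the cystine carrier), Slc7a3 (a carrier of cationic amino acids) and Cbs (cystathionine beta-synthase), with mean log2 levels of 5.21, 3.88 and 5.09 against a floor of 5.55, the median of all probe sets other than controls.

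RNA had been measured in 12 tumours of MC38 cells, a mouse colon carcinoma line, grown after injection into the cecum of C57BL/6 mice. Every group, controls included, carried an inducible short hairpin against Tdo2 (ishTDO2). Tdo2 encodes tryptophan 2,3-dioxygenase, which opens the ring of tryptophan and starts its breakdown to kynurenine. The 4 groups of 3 tumours were APC-KO with Dox (doxycycline in the drinking water, which induces the hairpin), APC-KO with no Dox, APC-WT with Dox, and APC-WT with no Dox. APC-KO cells lacked APC, the tumour suppressor that holds back beta-catenin, while APC-WT cells kept it. No tumours that received Dox without carrying the hairpin were analysed here, so the hairpin and Dox itself cannot be told apart. Whether APC-KO cells came from 1 clone, the age and sex of the mice, and whether the 3 tumours of a group grew in separate animals are not stated by the labels. The p-values therefore measure how these 12 samples vary, technical spread included.

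As background, the pathway starts with kinases of the translation factor eIF2alpha: Eif2ak4 (GCN2) senses uncharged tRNA and Eif2ak3 (PERK) senses misfolded protein in the endoplasmic reticulum. Phosphorylated eIF2alpha slows most translation but lets ribosomes reach the coding sequence of Atf4, so the ATF4 protein is controlled largely at translation, which an RNA array does not see. ATF4 then binds DNA together with C/EBP proteins at C/EBP-ATF response elements and raises genes for amino acid synthesis, uptake and tRNA charging, and also genes such as Trib3 and Ppp1r15a that damp the response.

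A search for such an element shows where the pathway's known DNA site lies in genes that the results turn on. The RefSeq promoter window of a gene, in build GRCm38.p6, runs from 250 bases before to 50 bases after the gene start. The motif searched was TGATGNAA, which reads TTNCATCA on the opposite strand, on both strands and with no second motif that could overlap it. Of 29 members with a window, 9 held at least 1 match (31.0%), namely Aars, Asns, Chac1, Gars, Nupr1, Pck2, Slc1a4, Slc7a11 and Trib3, against 1219 of 27025 genes with a window (4.51%) and 235 of 8945 tested genes (2.63%). Below are the 250 bases before the start, 5′ to 3′ along each gene's strand with the match in capitals, for Pck2 (chr14:55540016-55540265, plus strand) and Gars (chr6:55037751-55038000, plus strand), which rose with Dox, for Nupr1 (chr7:126625471-126625720, minus strand), which was lower in APC-KO tumours, and for Asns (chr6:7693210-7693459, minus strand), a classic gene of the response.
Pck2: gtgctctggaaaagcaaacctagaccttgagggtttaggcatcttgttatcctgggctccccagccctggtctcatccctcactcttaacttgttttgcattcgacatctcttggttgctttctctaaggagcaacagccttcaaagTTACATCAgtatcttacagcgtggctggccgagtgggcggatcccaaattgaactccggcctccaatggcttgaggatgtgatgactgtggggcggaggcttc
Gars: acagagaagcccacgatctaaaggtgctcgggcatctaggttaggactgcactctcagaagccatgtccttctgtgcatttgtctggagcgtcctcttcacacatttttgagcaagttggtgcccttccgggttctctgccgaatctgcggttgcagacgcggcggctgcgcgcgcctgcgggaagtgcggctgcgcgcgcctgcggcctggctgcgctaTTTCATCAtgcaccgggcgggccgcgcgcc
Nupr1: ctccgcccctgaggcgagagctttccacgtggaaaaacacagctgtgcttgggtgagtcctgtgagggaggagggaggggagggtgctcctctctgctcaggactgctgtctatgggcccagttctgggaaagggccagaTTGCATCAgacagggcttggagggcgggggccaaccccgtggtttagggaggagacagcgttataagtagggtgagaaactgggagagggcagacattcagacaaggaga
Asns: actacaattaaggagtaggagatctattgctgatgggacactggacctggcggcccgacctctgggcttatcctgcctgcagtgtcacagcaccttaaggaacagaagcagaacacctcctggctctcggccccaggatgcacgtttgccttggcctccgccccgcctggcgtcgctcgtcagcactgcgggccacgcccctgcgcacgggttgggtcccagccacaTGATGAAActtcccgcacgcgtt
The 4 matches lie on either strand and at different distances from the start. Of the other genes that rose with Dox, the windows of Psat1 and Psph held no match, and Aldh1l2 and Cth had no window to search. A match describes the sequence and does not show that ATF4 was bound there. The members were listed as regulators of the pathway and genes it is known to raise, so their share of matches describes the list and tests nothing. Slc7a11 and Cbs are among the 29 members with a window but were not among the tested genes.

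The arrays were alike in overall level, with medians between 5.53 and 5.58 on the log2 scale and correlations of 0.995 to 0.998 between tumours of a group. All 3 probe sets of Tdo2, the gene the hairpin targets, lay under the floor, with means of 2.59 to 3.85, so its knockdown could not be checked. Of the Apc probe sets, 3 of 4 lay above the floor, and the deleted part of the gene is not stated, so they check the labels only in part. The 2 dimmer of these separated the genotypes, 1 with 6.74 to 6.83 in APC-KO Dox against 7.70 to 7.78 in APC-WT Dox tumours, and 6.75 to 7.02 in APC-KO no Dox against 7.57 to 7.84 in APC-WT no Dox tumours. The brightest separated them with Dox and overlapped without, with 8.19 to 8.32 in APC-KO Dox against 8.45 to 8.53 in APC-WT Dox tumours, and 8.29 to 8.41 in APC-KO no Dox against 8.39 to 8.57 in APC-WT no Dox tumours. Tumour and host RNA were measured together, so fewer cells of a type and less RNA per cell cannot be told apart. Of 8 epithelial markers, 5 (Krt18, Krt19, Cldn4, Cdx2 and Vil1) lay under the floor, while macrophage markers had a mean level of 10.96 to 11.15 in every tumour.

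Dox over both genotypes compared tumours with and without Dox, which does not separate the hairpin from Dox itself. Of the 34 tested members 6 rose and 0 fell (limma, Benjamini-Hochberg adjusted p under 0.05). Among all genes tested 0.145% rose (16 of 11070) and 0.813% fell, so the 6 members were among 16 risers, of which 10 are no members. Differences are given in log2 units as Dox minus no Dox, or APC-KO minus APC-WT, each ± its standard error. The 6 were Psat1, Psph, Cth, Aldh1l2 and Pck2, all of amino acid and serine synthesis or one-carbon metabolism, and Gars, a tRNA synthetase. The median difference of the 34 members was 0.15, against -0.002 for all genes, and 28 of 34 were above 0, against 48.99% of all genes. An unadjusted p under 0.05 was reached by 17 of 34 members and by 17.4% of all genes.

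**Figure D1:**
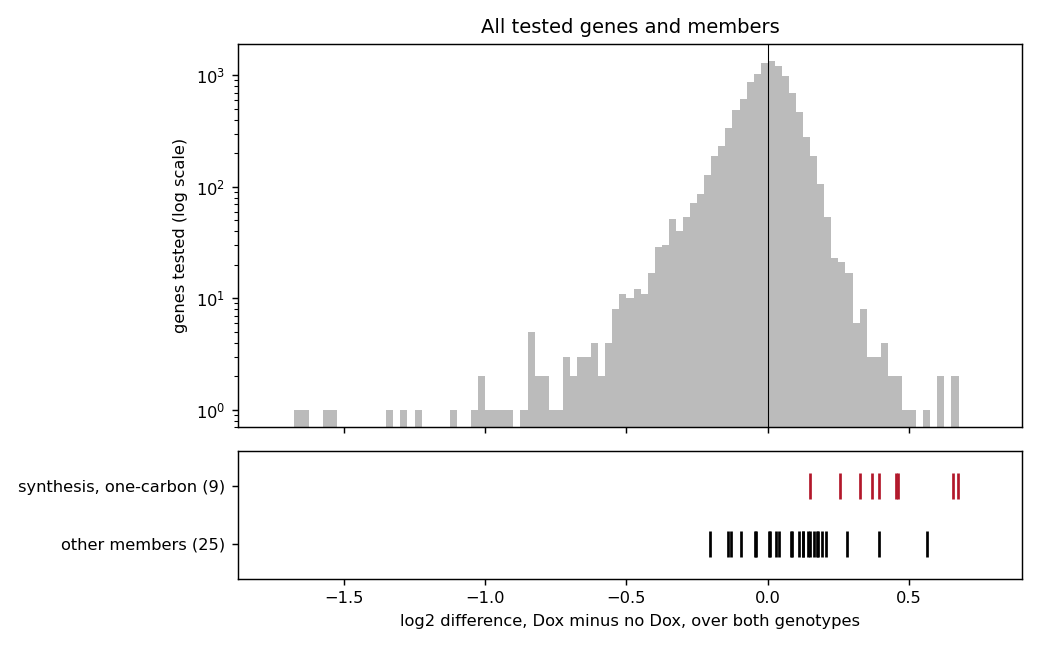
Difference with Dox over both genotypes, log2, for all 11070 tested genes (grey histogram, log count axis) and for the members (ticks below), split into 9 genes of synthesis and one-carbon metabolism and 25 others. The 9 synthesis genes lie between 0.15 and 0.67, all right of 0.

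Psat1 and Psph encode the second and the last enzyme of serine synthesis. Psat1 had 10.63, 10.28 and 10.78 in APC-KO Dox tumours, against 10.34, 9.98 and 10.07 in APC-KO no Dox tumours, and 10.57, 10.42 and 10.55 in APC-WT Dox tumours, against 10.29, 10.01 and 10.20 in APC-WT no Dox tumours. APC-WT tumours with and without Dox did not overlap, whereas replicate 2 of APC-KO Dox lay below replicate 1 of APC-KO no Dox. Its difference over both genotypes was 0.39 ± 0.08 (limma adjusted p = 0.0468), or 1.31-fold, and its second probe set gave 0.38. Psph had 9.77, 9.49 and 10.04 in APC-KO Dox tumours, against 9.62, 9.14 and 9.30 in APC-KO no Dox tumours, and 9.99, 9.84 and 9.75 in APC-WT Dox tumours, against 9.45, 9.22 and 9.43 in APC-WT no Dox tumours. It overlapped in APC-KO and not in APC-WT tumours, as Psat1 did, and rose by 0.45 ± 0.10 (limma adjusted p = 0.0423), or 1.37-fold.

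Aldh1l2 and Cth had the largest differences of the 34 members over both genotypes. Aldh1l2 encodes the mitochondrial enzyme that oxidises 10-formyltetrahydrofolate. It had 7.78, 7.75 and 8.48 in APC-KO Dox tumours, against 7.51, 6.79 and 7.00 in APC-KO no Dox tumours, and 8.41, 8.01 and 7.75 in APC-WT Dox tumours, against 7.61, 7.64 and 7.59 in APC-WT no Dox tumours. All 6 tumours with Dox lay above all 6 without, and the difference was 0.67 ± 0.15 (limma adjusted p = 0.0489), or 1.59-fold. Cth encodes cystathionine gamma-lyase, which makes cysteine. It had 7.87, 7.58 and 8.29 in APC-KO Dox tumours, against 7.85, 7.08 and 7.18 in APC-KO no Dox tumours, and 8.56, 8.41 and 8.13 in APC-WT Dox tumours, against 7.65, 7.39 and 7.76 in APC-WT no Dox tumours. The APC-WT groups stood well apart, while in APC-KO tumours replicate 1 without Dox lay among those with Dox, and the difference was 0.66 ± 0.14 (limma adjusted p = 0.0470), or 1.58-fold.

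Pck2 encodes the mitochondrial form of phosphoenolpyruvate carboxykinase. It had 9.28, 9.32 and 9.49 in APC-KO Dox tumours, against 8.98, 8.79 and 8.85 in APC-KO no Dox tumours, and 9.61, 9.39 and 9.16 in APC-WT Dox tumours, against 9.20, 9.21 and 9.27 in APC-WT no Dox tumours. The APC-KO groups did not overlap and the APC-WT groups did. Over both genotypes it rose by 0.33 ± 0.07 (limma adjusted p = 0.0404), or 1.25-fold. With the mean of its probe sets it did not pass (limma adjusted p = 0.104). Gars, whose enzyme charges tRNA with glycine, had 11.76, 11.81 and 11.74 in APC-KO Dox tumours, against 11.60, 11.45 and 11.57 in APC-KO no Dox tumours, and 11.82, 11.71 and 11.71 in APC-WT Dox tumours, against 11.63, 11.59 and 11.67 in APC-WT no Dox tumours. All 6 tumours with Dox lay above all 6 without, as for Aldh1l2 and for 0.226% of all genes tested, and the difference was small and tight at 0.18 ± 0.04 (limma adjusted p = 0.0375), or 1.13-fold.

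**Figure D2:**
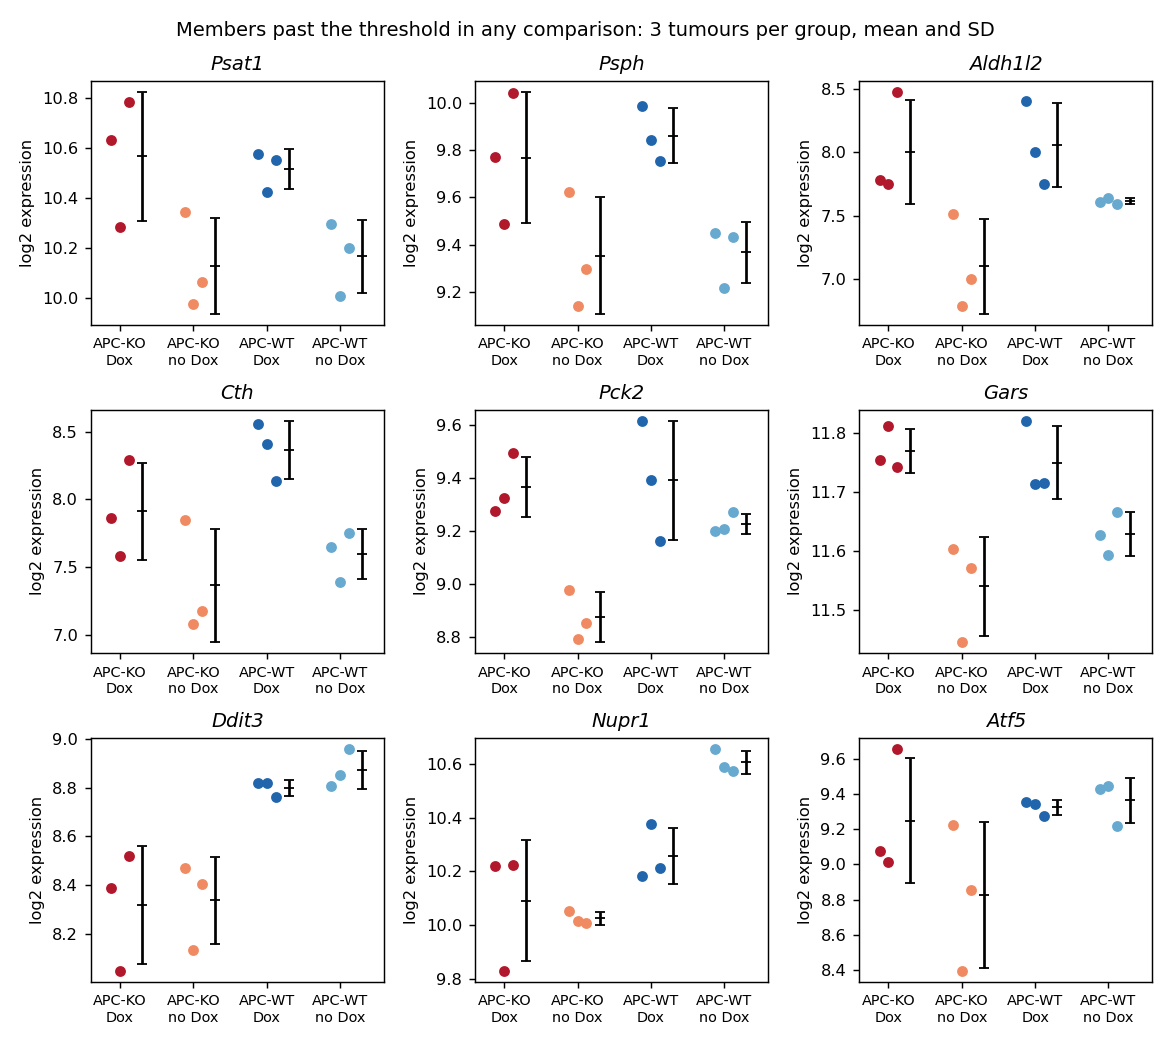
Expression (log2) of the 9 members past the threshold in any comparison, 3 tumours per group as points, with the mean and SD beside them as a black bar. Gars and Aldh1l2 are higher in all 6 tumours with Dox than in all 6 without, and Ddit3 is lower in all 6 APC-KO tumours than in all 6 APC-WT tumours.

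All 6 members that rose had adjusted p-values between 0.0375 and 0.0489, close under the threshold, and single tumours decided the number of calls. It was 0 without replicate 1 or 2 of APC-WT no Dox, replicate 1 or 2 of APC-WT Dox, replicate 2 or 3 of APC-KO no Dox, or replicate 3 of APC-KO Dox, it was 3 without replicate 1 or 2 of APC-KO Dox, and it was 4 to 8 without each of the other tumours. Without the mean-variance trend 0 of 34 members passed, and with the mean of a gene's probe sets 1 (Gars) did. The sizes moved less: with each tumour left out in turn, Aldh1l2 stayed between 0.55 and 0.78, Psat1 between 0.34 and 0.46, and Gars between 0.15 and 0.19. The counts over all genes moved too, with 0 rising and 5 falling without replicate 1 of APC-WT Dox and 57 rising and 202 falling without replicate 3 of APC-WT no Dox.

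By role, the synthesis and one-carbon genes stood highest with Dox over both genotypes. All 9 tested were above 0, with a median of 0.39 and a range of 0.15 to 0.67; 5 rose and 4 did not pass. The 4 were Asns (asparagine synthetase) at 0.46 ± 0.11 (limma adjusted p = 0.0634), Shmt2 (mitochondrial serine hydroxymethyltransferase) at 0.26 ± 0.07, Mthfd2 (mitochondrial folate dehydrogenase) at 0.37 ± 0.11, and Phgdh (the first enzyme of serine synthesis) at 0.15 ± 0.05. Averaged over the 9 genes, the deviation from each gene's 12-array mean was 0.14, 0.01 and 0.42 in APC-KO Dox tumours, against -0.02, -0.54 and -0.32 in APC-KO no Dox tumours, and 0.38, 0.20 and 0.10 in APC-WT Dox tumours, against -0.07, -0.23 and -0.06 in APC-WT no Dox tumours. The 6 tumours with Dox were thus above 0 and the 6 without below it, and the spread within groups was widest in APC-KO tumours. These genes and roles were chosen with earlier results of these data known, so the pattern of the averages is a description.

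**Figure D3:**
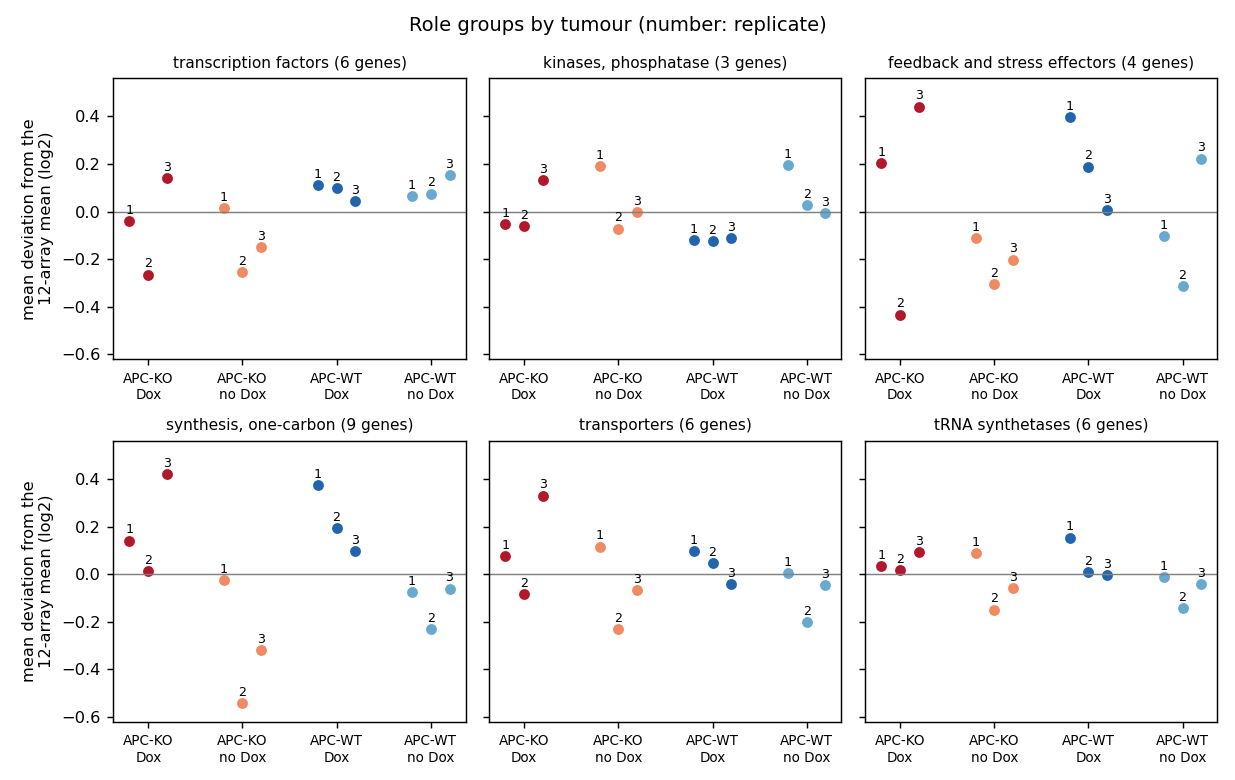
Mean deviation from the 12-array mean (log2) of the tested genes of each role, 1 point per tumour with its replicate number, in the 4 groups. In the panel of 9 synthesis genes the tumours with Dox sit between 0.01 and 0.42 and those without Dox between -0.54 and -0.02.

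The other roles held 1 riser among 25 genes, Gars. The 6 transporters had differences of 0.01 to 0.28 with a median of 0.13, and 0 of 6 passed (2 with an unadjusted p under 0.05). Among them, Slc7a5 and Slc3a2, the light and heavy chains of the carrier for large neutral amino acids including tryptophan, had 0.28 ± 0.10 and 0.21 ± 0.07 (limma adjusted p = 0.193 and 0.128). The 6 tRNA synthetases had 0.01 to 0.18, and Wars, which charges tRNA with tryptophan, lay lowest at 0.01 ± 0.05. The feedback and stress genes ranged from 0.04 for Eif4ebp1 (a brake on cap-dependent translation) to 0.56 ± 0.21 for Trib3 (a pseudokinase that inhibits ATF4 signalling; limma adjusted p = 0.190), and 0 of 4 passed (1 with an unadjusted p under 0.05). Asns, Slc7a5, Slc3a2, Wars and Trib3 were picked out after their values were seen.

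Of the pathway's 9 regulators 0 passed with Dox over both genotypes in limma (3 with an unadjusted p under 0.05). Atf4 had 11.93, 11.67 and 12.00 in APC-KO Dox tumours, against 11.94, 11.71 and 11.63 in APC-KO no Dox tumours, and 12.00, 11.94 and 11.82 in APC-WT Dox tumours, against 11.61, 11.65 and 11.91 in APC-WT no Dox tumours. The groups overlapped in both genotypes, and the difference was 0.15 ± 0.07 (limma adjusted p = 0.296). Of the 6 transcription factors 3 were above 0 with a median of 0.05. The 2 kinases and the phosphatase subunit were all below 0, at -0.09 ± 0.06 for Eif2ak3, -0.04 ± 0.09 for Eif2ak4 and -0.20 ± 0.09 for Ppp1r15a (the subunit of the phosphatase that restores eIF2alpha).

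Within APC-KO tumours, 1 of 34 members rose with Dox, Pck2 by 0.49 ± 0.10 (limma adjusted p = 0.0412), or 1.40-fold, and 0 fell; of all genes 0.0361% rose and 0.506% fell. The median of the 34 was 0.18, against 0.002 for all genes, and 29 of 34 were above 0. The median was 0.10 without replicate 3 of APC-KO Dox and 0.12 without replicate 2 of APC-KO no Dox. An unadjusted p under 0.05 was reached by 18 members and by 13.1% of all genes. Aldh1l2 had 0.90 ± 0.21 and Asns 0.64 ± 0.15, larger differences than that of Pck2 but with wider errors, and neither passed (limma adjusted p = 0.0807 and 0.0894). In 6 members (Pck2, Gars, Aldh1l2, Asns, Cebpg and Aars) the groups did not overlap and Dox was higher, as in 8.08% of all genes, and in 0 members was it lower, as in 9.67%. Pck2 no longer passed without any 1 of the 3 APC-KO no Dox tumours, replicate 2 or 3 of APC-KO Dox, replicate 2 of APC-WT Dox, or replicate 1 or 3 of APC-WT no Dox, when 0 members did.

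Within APC-WT tumours, 0 of 34 members passed in limma, and 0.0271% of all genes did. An unadjusted p under 0.05 was reached by 8 members (23.5%) and by 15.5% of all genes, and the members' median was 0.16, against -0.01 for all genes. It was 0.10 without replicate 2 of APC-WT no Dox and 0.11 without replicate 1 of APC-WT Dox. The highest members were Cth at 0.77 ± 0.20 (limma adjusted p = 0.127) and Psph at 0.49 ± 0.14 (limma adjusted p = 0.139). Nupr1 (a stress-induced nuclear protein) and Eif2ak3 had the lowest values, -0.35 ± 0.09 and -0.28 ± 0.09 (limma adjusted p = 0.123 and 0.162). In 14 members all Dox tumours lay above all no Dox tumours, as in 11.0% of all genes, and in 4 (Nupr1, Eif2ak3, Eif2ak4 and Slc38a2) below them, as in 10.3%. The 14 included 8 of the 9 synthesis genes, Pck2 being the exception. Together, the Dox tumours lay above the no Dox tumours in both genotypes for Asns, Aldh1l2 and Gars, 3 members, as for 0.985% of all genes. Without replicate 3 of APC-WT no Dox, Eif2ak3 fell past the threshold (limma adjusted p = 0.0213, and 0.0213 to 0.468 over the tumours left out), the 1 member to pass in any such fit. Of all genes 102 rose and 316 fell in that fit.

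**Figure D4:**
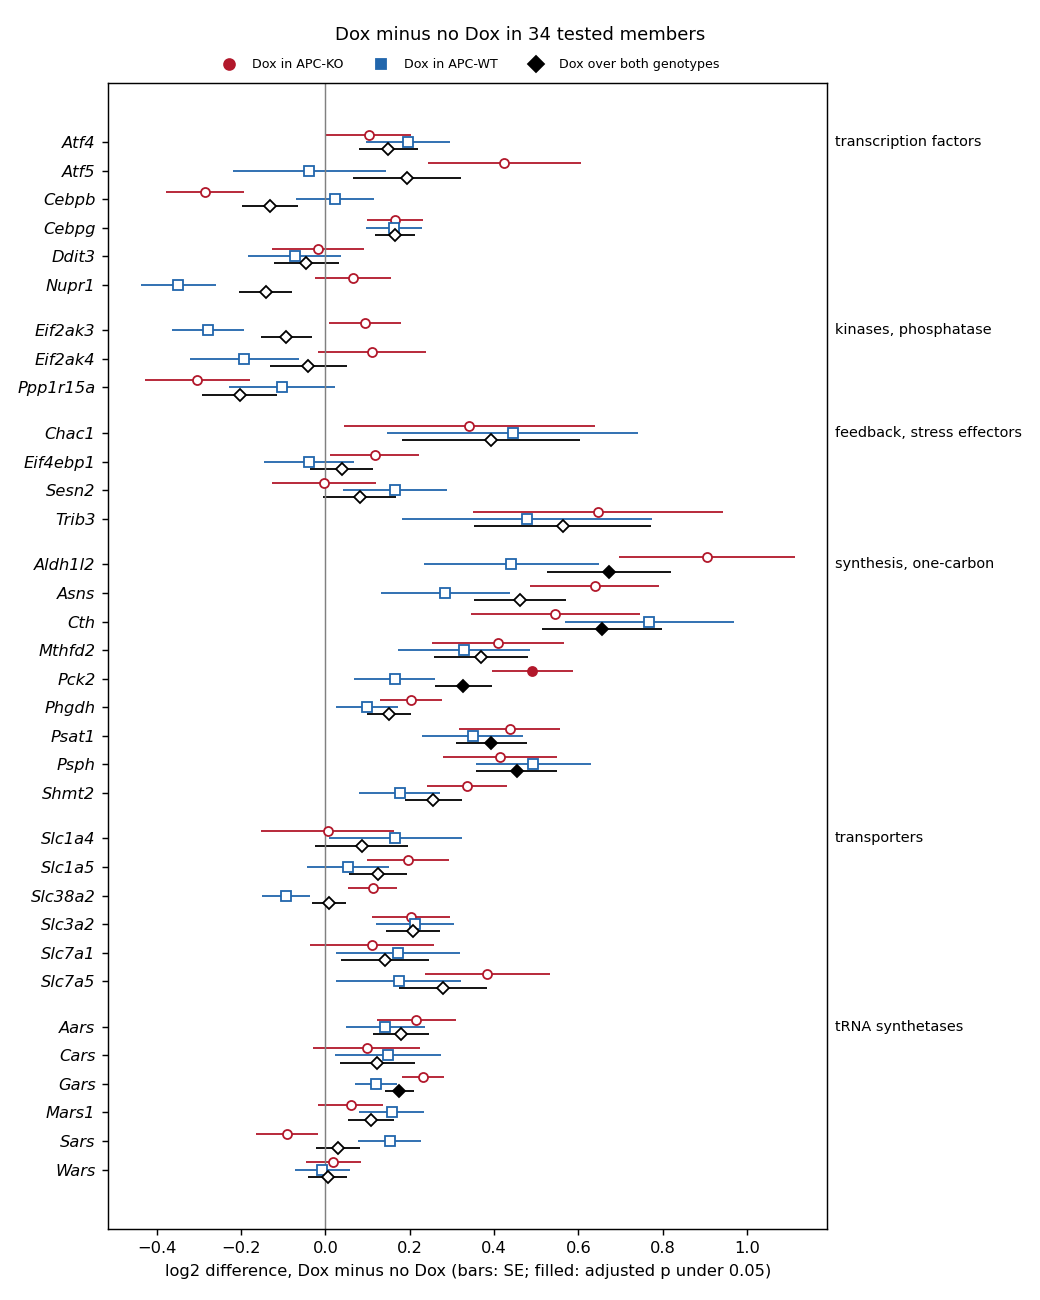
Difference between Dox and no Dox (log2, points with SE bars) for each of the 34 tested members in APC-KO tumours, in APC-WT tumours and over both, ordered by role. Filled symbols passed the threshold, and the synthesis genes lie right of 0 in all 3 comparisons.

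Whether the response to Dox differed between the genotypes was tested as an interaction, and 0 of 34 members and 0% of all genes passed in limma. An unadjusted p under 0.05 was reached by 6 members (17.6%) and by 1312 of all genes (11.9%). The smallest adjusted p of a member was 0.254, for Nupr1, whose difference with Dox was 0.07 ± 0.09 in APC-KO tumours and -0.35 ± 0.09 in APC-WT tumours. Pck2 had 0.49 ± 0.10 in APC-KO tumours and 0.16 ± 0.10 in APC-WT tumours, and its interaction of 0.33 ± 0.14 did not pass (limma adjusted p = 0.389). That Pck2 passed within 1 genotype therefore does not show a different response. Without replicate 3 of APC-WT no Dox, 1 member (Eif2ak3) passed, when 74 of all genes were higher and 45 lower.

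Markers of other cell types and RNA measures are given beside these differences; their part in them was not tested. The mean level of the 3 epithelial markers above the floor was 6.89 to 7.23 in APC-KO Dox tumours, against 7.33 to 7.68 in APC-KO no Dox tumours, and 7.16 to 7.38 in APC-WT Dox tumours, against 7.63 to 8.29 in APC-WT no Dox tumours, with no overlap in either genotype. Krt8 had the largest difference: over both genotypes it fell by 1.34 ± 0.29 on the log2 scale (limma adjusted p = 0.0480), the other 2 did not pass, and within APC-KO tumours these 2 had -0.01 and 0.05. Within APC-WT tumours the same 2 had, in that order, 0.19 and -0.75, each without overlap and neither past the threshold. Neutrophil markers (3 above the floor) had mean levels of 4.90 to 5.90 in APC-KO Dox tumours, against 7.28 to 8.84 in APC-KO no Dox tumours, and 6.41 to 7.55 in APC-WT Dox tumours, against 5.14 to 6.67 in APC-WT no Dox tumours. Their mean was lower with Dox without overlap in APC-KO tumours and overlapped in APC-WT tumours. Within APC-KO tumours S100a8 and S100a9 had -4.07 ± 0.64 and -4.30 ± 0.70 with Dox (limma adjusted p = 0.0113 and 0.0133). Csf3r had -0.17 and did not pass, and Cxcr2 and Mpo lay under the floor. T and NK cell markers had 6.25 to 6.87 in APC-KO Dox tumours, against 6.73 to 6.81 in APC-KO no Dox tumours, and 6.92 to 7.27 in APC-WT Dox tumours, against 7.29 to 7.64 in APC-WT no Dox tumours, overlapping in APC-KO alone, and 0 of 7 passed with Dox over both genotypes in limma (6 with an unadjusted p under 0.05). The signal of 18S ribosomal RNA was 8.96 to 9.24 in APC-KO Dox tumours, against 9.47 to 9.76 in APC-KO no Dox tumours, and 9.06 to 9.33 in APC-WT Dox tumours, against 9.20 to 9.33 in APC-WT no Dox tumours, overlapping in APC-WT alone. The 3′ minus 5′ signal of Gapdh was -0.16 to -0.11 in APC-KO Dox against -0.18 to -0.15 in APC-KO no Dox tumours, which overlapped. It was -0.19 to -0.16 in APC-WT Dox against -0.12 to -0.09 in APC-WT no Dox tumours, without overlap. Without Dox it also separated the genotypes. That of Actb overlapped with and without Dox in both genotypes.

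APC-KO and APC-WT tumours that received no Dox were compared as well, and 4 of 34 members were lower in APC-KO tumours while 0 were higher. Of all genes 11.1% were lower and 13.8% higher, so the members' share of 4 in 34 is close to the background for lower genes. The median of the members was -0.04, against 0.01 for all genes. The 4 were Ddit3, Nupr1 and Atf5, all transcription factors of the stress response, and Pck2. With Dox, 1 of 34 was lower, Ddit3, and 0 were higher, against 7.99% of all genes lower and 11.9% higher. Over both Dox states 3 of 34 were lower, Ddit3, Nupr1 and Pck2, and 0 were higher, against 15.6% lower and 20.9% higher among all genes.

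Ddit3 encodes CHOP, a transcription factor that promotes cell death under lasting stress. It had 8.39, 8.05 and 8.52 in APC-KO Dox tumours, against 8.82, 8.82 and 8.76 in APC-WT Dox tumours, and 8.47, 8.13 and 8.41 in APC-KO no Dox tumours, against 8.81, 8.85 and 8.96 in APC-WT no Dox tumours. All 6 APC-KO tumours lay below all 6 APC-WT tumours, as in 6.67% of all genes, and Ddit3 was the 1 member of which this held. Its differences were -0.48 ± 0.11 with Dox, -0.54 ± 0.11 without and -0.51 ± 0.08 over both (limma adjusted p = 0.00737, 0.00325 and 0.000215), and each passed with every single tumour left out. Its other probe set lay under the floor and gave -0.03 over both states; with the mean of its probe sets the difference with Dox did not pass.

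Nupr1 had 10.05, 10.01 and 10.01 in APC-KO no Dox tumours, against 10.66, 10.59 and 10.57 in APC-WT no Dox tumours, 2 tight groups far apart. With Dox the groups overlapped, at 10.22, 9.83 and 10.22 in APC-KO tumours, against 10.18, 10.38 and 10.21 in APC-WT tumours. The difference was -0.58 ± 0.09 without Dox (limma adjusted p = 0.000457) and -0.17 ± 0.09 with Dox (limma adjusted p = 0.216). Pck2 fell by 0.35 ± 0.10 on the log2 scale in APC-KO against APC-WT tumours without Dox (limma adjusted p = 0.0171) and had -0.02 ± 0.10 with Dox. Atf5, a factor related to ATF4 that supports survival under stress, had 9.23, 8.40 and 8.85 in APC-KO no Dox tumours, against 9.43, 9.45 and 9.22 in APC-WT no Dox tumours, which overlapped by 1 tumour, and 9.08, 9.01 and 9.66 in APC-KO Dox tumours, against 9.35, 9.35 and 9.28 in APC-WT Dox tumours. It passed narrowly without Dox, at -0.54 ± 0.18 (limma adjusted p = 0.0433).

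Between the genotypes, single tumours decided the calls of Atf5 without Dox and of Pck2 over both Dox states. Without Dox, the members that passed numbered 2 without replicate 2 of APC-KO no Dox (Ddit3 and Nupr1), when 1301 of all 11070 genes were higher and 937 lower. They numbered 7 without replicate 1 of APC-KO no Dox (1130 and 1098 genes), and Atf5 passed in 5 of the 12 fits that each left 1 tumour out. Pck2 passed without Dox in 11 of these 12 fits, all but the 1 without replicate 2 of APC-KO no Dox. Over both Dox states the number was 7 without replicate 1 of APC-KO no Dox, when 2051 of all genes were higher and 1663 lower. It was 8 without replicate 3 of APC-KO Dox (1976 and 1489 genes) and 2 to 4 without each of the others. Pck2 had -0.19 ± 0.07 there (limma adjusted p = 0.0449) and passed in 3 of the 12 fits; it did not pass without the trend, with the mean of probe sets or with no filter, where 2 members did (limma adjusted p up to 0.133 over these settings).

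In roles with no member past the threshold, the 1 with the smallest p between genotypes over both Dox states stands for the role. Among transporters this was Slc1a4, a carrier of alanine, serine and cysteine, with 7.65, 7.69 and 8.19 in APC-KO Dox tumours, against 7.73, 7.64 and 7.66 in APC-WT Dox tumours, and 8.04, 7.65 and 7.83 in APC-KO no Dox tumours, against 7.68, 7.16 and 7.70 in APC-WT no Dox tumours. The groups overlapped in both Dox states, and the difference was 0.25 ± 0.11 (limma adjusted p = 0.0970). Among feedback genes Eif4ebp1 had 11.28, 11.16 and 11.50 in APC-KO Dox tumours, against 11.24, 11.00 and 11.04 in APC-WT Dox tumours, and 11.38, 10.95 and 11.26 in APC-KO no Dox tumours, against 11.19, 11.17 and 11.04 in APC-WT no Dox tumours (0.14 ± 0.08, limma adjusted p = 0.161). Eif2ak4 had 7.33, 7.55 and 7.86 in APC-KO Dox tumours, against 7.34, 7.23 and 7.32 in APC-WT Dox tumours, and 7.72, 7.33 and 7.36 in APC-KO no Dox tumours, against 7.63, 7.44 and 7.39 in APC-WT no Dox tumours (0.13 ± 0.09, limma adjusted p = 0.280). Neither separated the genotypes. Atf4 itself had -0.01 ± 0.07 over both Dox states.

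**Figure D5:**
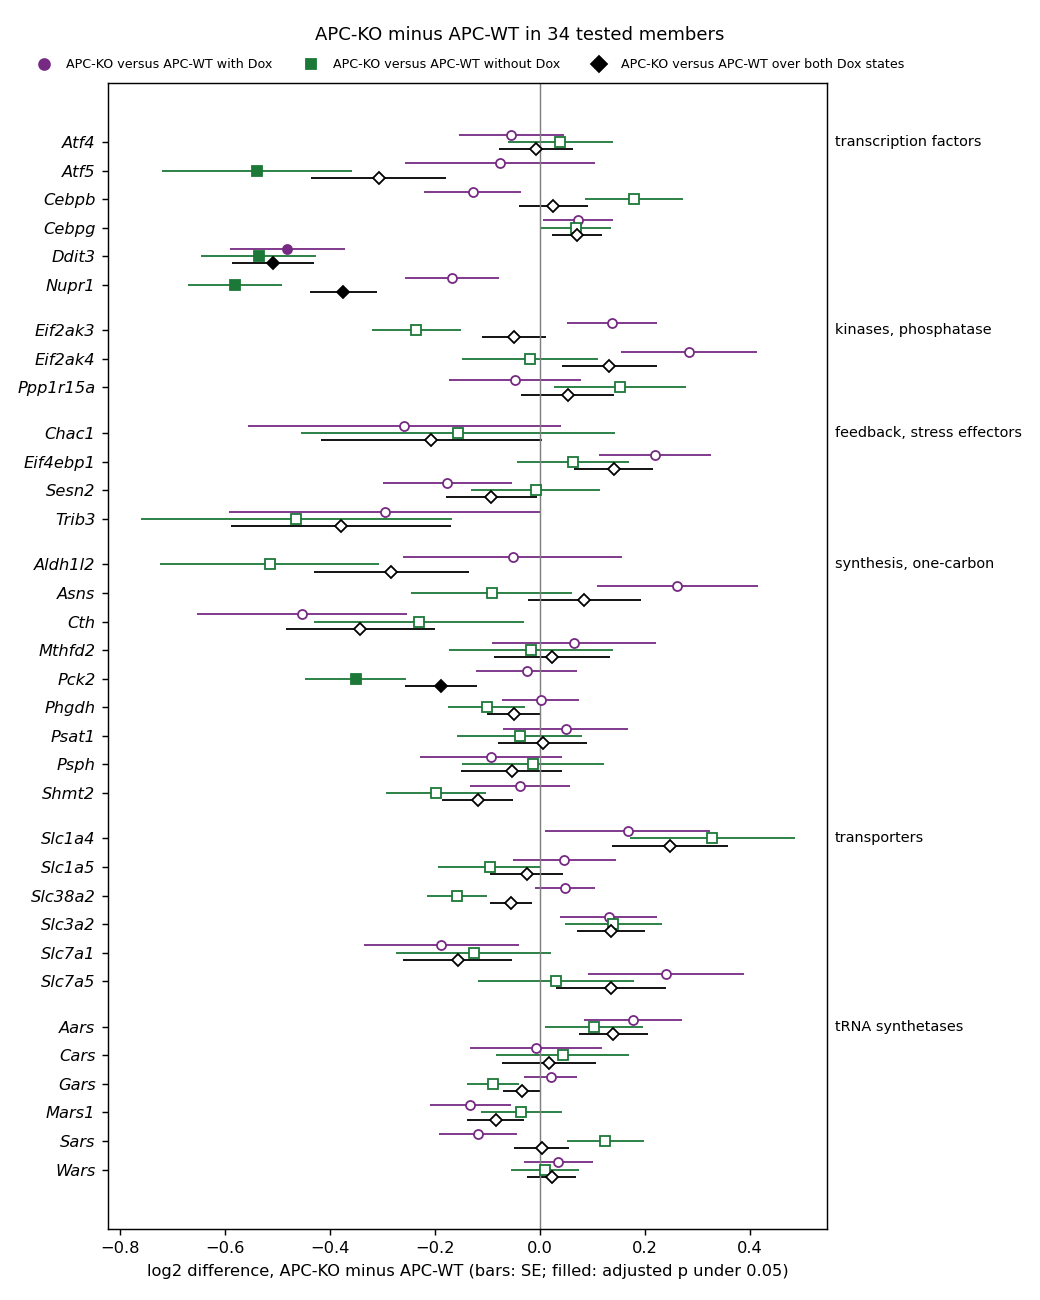
Difference between APC-KO and APC-WT tumours (log2, points with SE bars) for each of the 34 tested members with Dox, without Dox and over both Dox states, ordered by role. Filled symbols passed the threshold: Ddit3 in all 3 comparisons, Nupr1 and Pck2 in 2, and Atf5 in 1.

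Neighbouring gene lists show how far the same direction reached with Dox over both genotypes. Of 13 other cytosolic tRNA synthetases 12 were above 0, with a median of 0.09 and 0 past the threshold (3 with an unadjusted p under 0.05). Of 23 other genes of the ATF4 pathway 13 were above 0, with a median of 0.05 and 0 past it, though 13 had an unadjusted p under 0.05. Of 8 folate and glycine genes outside the members 7 were above 0 (median 0.09), of 16 chaperones of the endoplasmic reticulum 13 were (median 0.06), and of 13 other amino acid transporters 3 were (median -0.05), with 0 past the threshold in each (2, 1 and 3 with an unadjusted p under 0.05). Interferon is known to induce Wars; of 13 interferon-stimulated genes 0 were above 0 (median -0.25), and 1 fell, Gbp2 at -0.51 ± 0.10 (8 with an unadjusted p under 0.05). Of 15 mitochondrial tRNA synthetases 11 were above 0 (median 0.02), and of 8 targets of NRF2, which also induces Slc7a11, 4 were (median -0.01), with 0 past the threshold in both (2 and 1 with an unadjusted p under 0.05).

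Between APC-KO and APC-WT tumours over both Dox states, the same lists held more changes than with Dox. The background was also larger: 36.5% of all genes passed, 20.9% higher and 15.6% lower. Of the 23 other ATF4 pathway genes 5 were higher and 2 lower, Impact (an inhibitor of GCN2 activation) at 0.53 ± 0.07 and Ddit4 (an inhibitor of mTORC1) at -0.65 ± 0.16 being the farthest from 0. Of the folate and glycine genes 4 of 8 were higher, among them Mthfd1 at 0.24 ± 0.04 and Mtr (methionine synthase) at 0.37 ± 0.07. Of the other tRNA synthetases 3 of 13 were lower, and of the NRF2 targets 4 of 8 were higher, Nqo1 (a quinone reductase) most at 1.00 ± 0.08. Of 16 chaperones of the endoplasmic reticulum 2 were higher and 1 lower, and of 13 other amino acid transporters 1 was higher and 1 lower. Of 15 mitochondrial tRNA synthetases 4 were higher and 1 lower. These 3 lists, the other ATF4 pathway genes and the other tRNA synthetases thus passed less often than all genes. Markers of T and NK cells were lower in 6 of 7 and interferon-stimulated genes in 8 of 13. Of 8 fibroblast markers 4 were higher, of 4 endothelial markers 2 were higher and 1 lower, and of 9 macrophage markers 1 was higher and 1 lower. Of 3 epithelial markers 1 was lower, Krt8 at -1.21 ± 0.29, while the other 2 lay above 0 and did not pass. Of 3 neutrophil markers 3 were higher without Dox, S100a8 at 2.94 ± 0.64, while with Dox 2 were lower, S100a8 at -2.13 ± 0.64. The part of these markers in the members' differences was not tested.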

How the data were processed

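Per the labels, total RNA of 12 tumours had been purified, labelled with biotin and hybridised to Affymetrix arrays. The authors deposited log2 values, 1 per probe set; the log2 scale was read from the values (1.86 to 14.16). MAS5 is named in the submitters' processing notes, without a version, and further steps are not stated there. Arrays give no read depth, so their number limits the precision.

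Of 45101 probe sets 34945 name 1 gene, 932 several and 9160 none; 64 are controls. Symbols came from the platform annotation, updated through RefSeq for 34741 probe sets. The brightest probe set stood for each gene, and genes at or above the median probe set (5.55) were tested. A group-means model over all 12 arrays was fitted with limma 3.58.1 (R 4.3.3) with a mean-variance trend, 7 contrasts, 2-sided, with Benjamini-Hochberg adjustment over 11070 genes at 0.05, and was tested on simulated data. Members, roles and lists were chosen with earlier results of these data known. Values per tumour are given for members past the threshold in any contrast and, in roles with none, for the member of smallest p between genotypes. Atf4 is given per tumour as well, outside this rule. Of 21 members with several probe sets above the floor, 3 (Cars, Sesn2 and Wars) disagreed in sign with Dox over both genotypes. Between genotypes 7 disagreed over both Dox states, 9 without Dox and 9 with Dox, Pck2 among those with Dox.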

Additional observations from a re-analysis of the deposited data

How the results depend on the processing

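Alternatives were 8 other settings (the mean-variance trend, the choice of probe set, the filter, the arrays in the fit, array weights, quantile normalization and a replicate block) and leaving out each of the 12 tumours. Of the members' differences, 0 changed sign while past the threshold. With Dox over both genotypes, 6 members passed, against 0 without the trend and 1 with the mean of probe sets, and 0 to 8 with a tumour left out; among all genes 16 rose and 90 fell, against 1 and 43 without the trend and 73 and 193 with array weights, and 0 to 57 and 5 to 202 with a tumour left out. Within APC-KO tumours 1 passed with Dox, against 0 without the trend, 0 with the mean of probe sets, 2 with quantile normalization, and 0 to 1 with a tumour left out; all genes gave 4 higher and 56 lower, against 1 and 35 with the compared groups alone, and 0 to 18 and 1 to 74 with a tumour left out. Within APC-WT tumours 0 passed, against 3 with array weights (257 and 396 genes, against 1 and 2) and 0 to 1 with a tumour left out (0 to 102 and 0 to 316 genes). Between genotypes without Dox 4 passed, and 2 to 7 with a tumour left out. With Dox 1 passed, against 0 with the mean of probe sets, 5 with array weights (2082 and 1428 genes, against 1320 and 885) and 1 to 2 with a tumour left out. Over both Dox states 3 passed, against 7 with array weights, 2 without the trend, with the mean of probe sets or with no filter (Pck2 lost each time), and 2 to 8 with a tumour left out. For the interaction 0 passed, and 0 to 1 with a tumour left out (0 to 74 genes higher and 0 to 45 lower). The causes were not tested.

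Replicate numbers did not pair the tumours (correlations of deviations between same-numbered tumours -0.22 to 0.17). With a replicate block 6 members rose with Dox over both genotypes, 4 of them the same, 1 passed within APC-KO tumours (Psat1 in place of Pck2) and 0 within APC-WT tumours, 4 and 1 passed between genotypes without and with Dox, 3 over both (Aars, Ddit3 and Nupr1, without Pck2), and 0 for the interaction. Without the filter, Slc7a11, Slc7a3 and Cbs had 0.05, -0.05 and 0.09 with Dox over both genotypes (limma adjusted p = 0.938, 0.862 and 0.721); levels this low limit what their probe sets can show.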
